A study of Rattus norvegicus with 4 samples.

Results

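D cyclins, CDK inhibitors and p53 arrest genes, 10 genes in all that act on passage through the cell cycle, were followed across cultures of neural stem cells and of neurons made from these. They are the D-type cyclins Ccnd1, Ccnd2 and Ccnd3, their kinase partner Cdk4, the cyclin-dependent kinase inhibitors Cdkn1a, Cdkn1b, Cdkn2a and Cdkn2b, and the p53 targets Gadd45a and Ccng1. The probes were taken because their accession belongs to one of these genes, and the 10 genes had 15 probes among the 8927 genes that could be named by accession. The genes themselves were chosen with earlier results of these data known, and the probe with the highest mean signal stood for a gene. All 10 were well above background on all 4 arrays, and no filter on low values removed a gene.

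The study compared neural stem cells (NSC) with the neurons they gave rise to, from the olfactory bulb (OB) and from the hippocampus (HPC) of Fisher 344 rats. The 4 groups are OB neurons, HPC neurons, OB NSC and HPC NSC. Each was measured on 1 array, hybridised with RNA pooled from 3 independent experiments, so no value below has a replicate check and the number of arrays limits its precision. The labels give no genetic change, no duration of differentiation and no treatment that separates the groups other than the differentiation itself.

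D-type cyclins are made in response to growth signals and bind Cdk4 or Cdk6, which phosphorylate the retinoblastoma protein and let E2F factors switch on the genes of S phase. The Ink4 inhibitors, encoded by Cdkn2a to Cdkn2d, bind these kinases directly, while the Cip/Kip inhibitors, encoded by Cdkn1a, Cdkn1b and Cdkn1c, act on cyclin-CDK complexes. The tumour suppressor p53 induces Cdkn1a, Gadd45a and Ccng1 after stress, and in neural tissue leaving the cell cycle goes together with becoming a neuron.

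Levels are log2 signals minus the array's own 75th percentile, so a level of 0 is the signal at that percentile, and they can be compared between arrays for a gene but not between genes. Of all probes, 74% were well above background on the OB neuron array, 66.6% on the HPC neuron array, 63.8% on the OB NSC array and 60.2% on the HPC NSC array. Both neuron arrays lay on 1 slide and both NSC arrays on the other, so slide and cell state cannot be told apart. The arrays labelled neurons did not carry a general rise of neuronal genes. Of 17 neuron markers, 2 (Snap25 and Stmn2) were higher and 8, Tubb3 among them, were lower in neurons of both sources at 2-fold or more, and their summed signal, in units of the array's 75th percentile, was 17.9 in OB neurons and 32.6 in HPC neurons, against 134 in OB NSC and 188 in HPC NSC. On both neuron arrays Syt1 was not well above background. For comparison with these marker counts, 1212 of the 6567 genes measured in both sources were higher in neurons of both by 2-fold or more, and 1104 were lower. All 11 of 11 measured markers of pericytes, fibroblasts and smooth muscle were higher in neurons of both sources, with sums of 880 in OB neurons and 614 in HPC neurons, against 0.312 in OB NSC and 0.439 in HPC NSC, where 3 of the 11 were above background. Astrocyte markers were higher for 9 of 11, with sums of 151 in OB neurons and 146 in HPC neurons, against 33.2 in OB NSC and 43.3 in HPC NSC. These markers move with every neuron-NSC difference below, and their part in the results was not tested. In such bulk RNA, fewer cells of a type and less RNA per cell cannot be told apart.

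Between neurons and stem cells, 6 of the 10 genes were higher in the neurons of both sources by 2-fold or more, namely Ccnd2, Ccnd3, Cdkn1a, Cdkn2b, Gadd45a and Ccng1, and Cdk4 was lower in both. Among all 6567 genes measured in both sources, 1212 were higher in both and 1104 lower in both at that limit. In the OB, 6 were higher and 3 lower, where 26.9% of all measured genes were higher and 20.0% lower. In the HPC, 6 were higher and 1 was lower, where 21.8% of all measured genes were higher and 26.9% lower. The median log2 difference of the 10 genes was 2.42 in the OB and 2.43 in the HPC, and that of all measured genes was 0.08 in the OB and −0.32 in the HPC. A limma fit over the 4 arrays with source as a term called 6 of the 10 genes higher and 1 lower in neurons at an adjusted p under 0.05, where it called 20.0% of 7112 genes higher and 17.4% lower. In that fit the error comes from the disagreement of the 2 sources and not from a spread between cultures. A gene's own disagreement gives 1 degree of freedom, against 16.6 borrowed from all genes tested. The SE of the 10 genes thus lay between 0.44 and 0.48, and the adjusted p mostly follows the size of the difference. The difference the fit tests includes any difference between the slides.

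**Figure D1:**
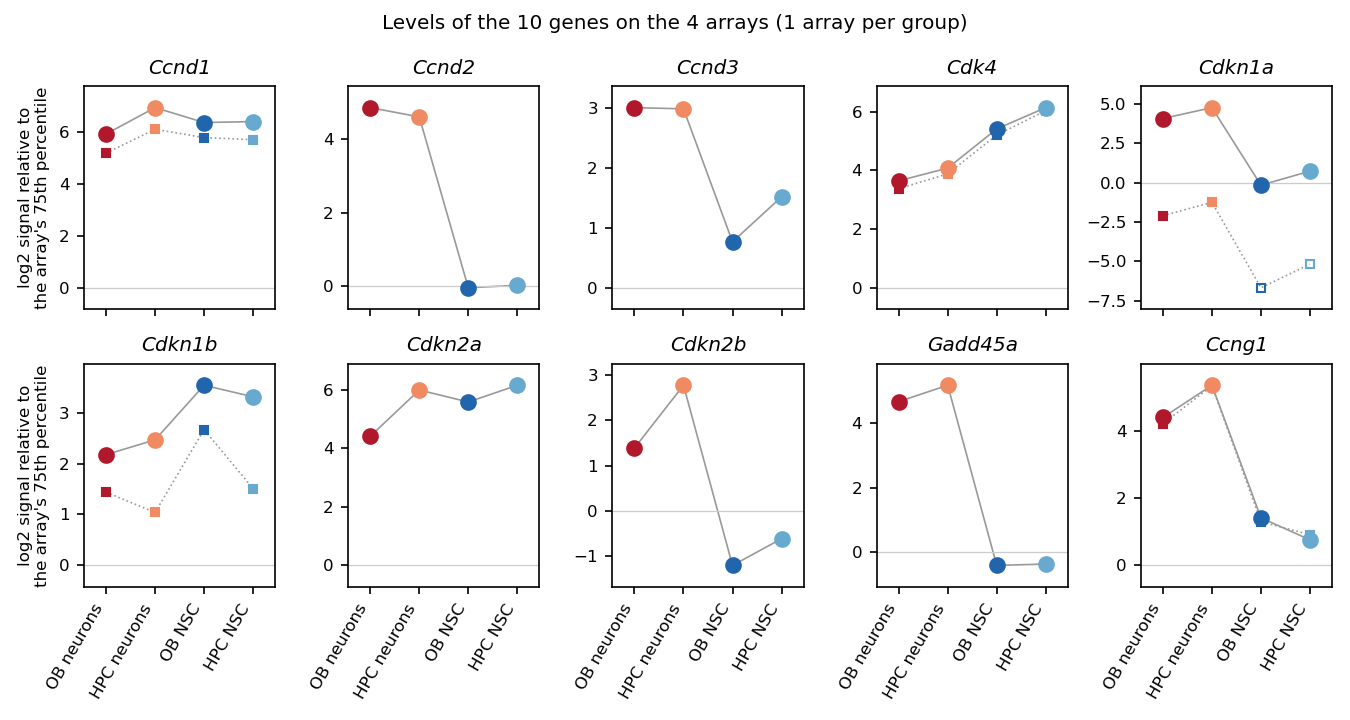
Level of each gene (log2 signal relative to the array's 75th percentile, y axis, its own range in each panel) on the OB neuron, HPC neuron, OB NSC and HPC NSC arrays, with 1 array per group and no error bars. Large circles are the probe used, small squares the other probe of the 5 genes with 2 probes, and open symbols are not well above background; both neuron points lie above both NSC points for Ccnd2, Ccnd3, Cdkn1a, Cdkn2b, Gadd45a and Ccng1, and below them for Cdk4 and for the probe of Cdkn1b that was used.

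The 3 D-type cyclins did not move together. Ccnd2, the D cyclin tied to expansion of neural progenitors and to adult neurogenesis in mice, had levels of 4.86 in OB neurons and 4.60 in HPC neurons, against −0.04 in OB NSC and 0.02 in HPC NSC. It was 29.9-fold higher in OB neurons than in OB NSC and 23.9-fold higher in HPC neurons than in HPC NSC, and both neuron arrays lay above both NSC arrays. The limma fit gave a rise of 4.74 ± 0.45 log2 units (SE, adjusted p = 1.13e-07). Ccnd3 had levels of 3.01 in OB neurons and 2.99 in HPC neurons, against 0.77 in OB NSC and 1.52 in HPC NSC. Both neuron arrays were again above both NSC arrays, by 4.74-fold in the OB and 2.77-fold in the HPC (limma, 1.86 ± 0.45 log2 units, SE, adjusted p = 0.00337).

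Ccnd1, the D cyclin most directly induced by mitogens, was read at 5.91 in OB neurons and 6.92 in HPC neurons, against 6.35 in OB NSC and 6.39 in HPC NSC. The NSC values lay between the neuron values, so the differences had opposite signs, −0.44 in the OB and 0.54 in the HPC, and neither reached 2-fold. Its second probe gave the same signs, −0.60 in the OB and 0.40 in the HPC. Under quantile normalization the OB value was 0.04. The limma fit gave 0.05 ± 0.46 log2 units (SE, adjusted p = 0.948), which does not show that the states are alike.

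Cdk4, the kinase that D cyclins activate, went the other way from Ccnd2 and Ccnd3. It was read at 3.64 in OB neurons and 4.07 in HPC neurons, against 5.41 in OB NSC and 6.13 in HPC NSC, which is 3.4-fold lower in OB neurons and 4.17-fold lower in HPC neurons. A second probe gave −1.83 in the OB and −2.15 in the HPC. Over both sources it fell by 1.91 ± 0.45 log2 units in limma (SE, adjusted p = 0.00231), and by 1.40 with an adjusted p of 0.0503 after quantile normalization.

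The 4 inhibitors fell into those higher in neurons and those not. Cdkn1a, which encodes p21 and is the best known p53 target in cell cycle arrest, was read at 4.07 in OB neurons and 4.76 in HPC neurons, against −0.16 in OB NSC and 0.73 in HPC NSC. It was 18.8-fold higher in OB neurons and 16.4-fold higher in HPC neurons (limma, 4.13 ± 0.44 log2 units, SE, adjusted p = 6.49e-07). The probe used is printed 10 times on the array, and the SD of these spots was 0.05 in OB neurons, 0.10 in HPC neurons, 0.08 in OB NSC and 0.12 in HPC NSC, which is noise of spots and not of cultures. A second, dimmer Cdkn1a probe was not well above background on either NSC array and gave a log2 difference of at least 3.87 in the OB and at least 3.93 in the HPC, taking as the NSC value the higher of its own signal and the lowest signal well above background on that array.

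**Figure D2:**
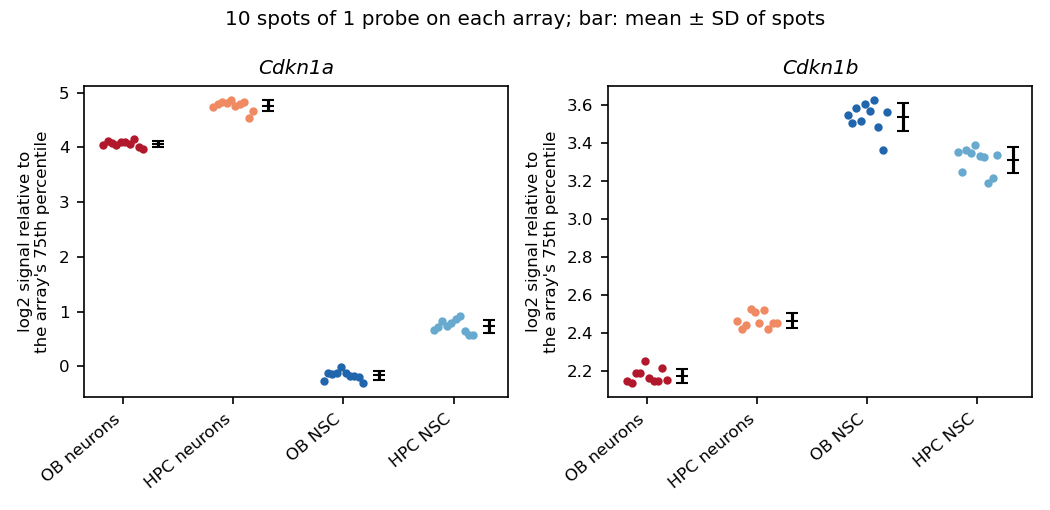
The 10 spots of the Cdkn1a probe and of the Cdkn1b probe on each array (y axis, log2 signal relative to the array's 75th percentile; the y axes differ and do not start at 0), with the mean ± SD of the spots as a black bar. Cdkn1a spots of the neuron arrays lie about 4 log2 units above those of the NSC arrays, and Cdkn1b spots of the neuron arrays lie below them.

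Cdkn2b, which encodes the Ink4 inhibitor p15 and is induced by TGF-beta in epithelial cells, was read at 1.39 in OB neurons and 2.78 in HPC neurons, against −1.20 in OB NSC and −0.61 in HPC NSC. Both neuron arrays lay above both NSC arrays, by 2.59 log2 units in the OB and 3.39 in the HPC (limma, 2.99 ± 0.45 log2 units, SE, adjusted p = 3.81e-05). Cdkn2a lies beside it in the genome and encodes both p16 and p19Arf from overlapping transcripts, and its 1 probe was not assigned to either here. Its levels were 4.42 in OB neurons and 5.996 in HPC neurons, against 5.59 in OB NSC and 6.16 in HPC NSC. The OB neuron array stood below the other 3, at −1.17 from OB NSC, which came to −0.85, short of 2-fold, after quantile normalization. The HPC difference was −0.16, positive under quantile normalization (0.70) and spike-in scaling (0.24). The call was not made in limma (−0.67 ± 0.46 log2 units, SE, adjusted p = 0.28).

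Cdkn1b, which encodes p27, the inhibitor that accumulates in many cells that stop dividing, was not higher in neurons. Its levels were 2.17 in OB neurons and 2.47 in HPC neurons, against 3.54 in OB NSC and 3.31 in HPC NSC. Both neuron arrays lay below both NSC arrays, by 2.57-fold in the OB and 1.8-fold in the HPC, and the limma difference of −1.10 ± 0.45 log2 units missed the threshold (SE, adjusted p = 0.0621). A second probe gave −1.23 in the OB and −0.47 in the HPC. Much of p27 control acts on the protein, which these arrays do not measure.

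Gadd45a and Ccng1, the p53 targets that are not kinase inhibitors, were both higher in neurons, and Gadd45a had the largest limma difference of the 10 genes. Gadd45a, a stress protein that acts in G2/M arrest and DNA repair, was read at 4.68 in OB neurons and 5.19 in HPC neurons, against −0.42 in OB NSC and −0.37 in HPC NSC. This is 34.3-fold higher in OB neurons and 47.3-fold higher in HPC neurons, and the NSC arrays were 0.04 log2 units apart (limma, 5.33 ± 0.45 log2 units, SE, adjusted p = 2.4e-08). Ccng1, a cyclin-like protein that binds a phosphatase and feeds back on the p53 regulator Mdm2, was read at 4.39 in OB neurons and 5.35 in HPC neurons, against 1.41 in OB NSC and 0.76 in HPC NSC. It was 7.89-fold higher in OB neurons and 24.1-fold higher in HPC neurons (limma, 3.79 ± 0.48 log2 units, SE, adjusted p = 5.31e-06), and a second probe gave 2.91 in the OB and 4.42 in the HPC.

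Promoter sequence is shown for the 3 p53 targets and for Cdk4, which moved the opposite way. The RefSeq promoter table (build GRCr8) held 8 of the 10 genes; Ccnd1 and Ccnd2 were not in it. Each window is the 250 bases before the table's transcription start on the gene's strand, and for Cdkn1a only the 138 bases that lie outside the annotated gene are printed. Capitals mark matches, on either strand, to the p53 half-site consensus (searched by its degenerate form), the GC box GGGCGG, the CCAAT box CCAAT and the E-box CACGTG. The windows are chr20:7150682-7150819 on the plus strand for Cdkn1a, chr4:97486800-97487049 on the minus strand for Gadd45a, chr10:25684877-25685126 on the minus strand for Ccng1 and chr7:64771203-64771452 on the plus strand for Cdk4.
Cdkn1a: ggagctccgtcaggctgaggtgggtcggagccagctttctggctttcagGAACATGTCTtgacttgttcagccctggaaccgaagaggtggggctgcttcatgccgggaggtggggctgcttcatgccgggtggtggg
Gadd45a: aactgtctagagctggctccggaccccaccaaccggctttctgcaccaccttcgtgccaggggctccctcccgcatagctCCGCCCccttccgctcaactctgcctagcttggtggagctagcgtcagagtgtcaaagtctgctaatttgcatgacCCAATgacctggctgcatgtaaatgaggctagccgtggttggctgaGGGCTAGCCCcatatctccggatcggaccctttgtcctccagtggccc
Ccng1: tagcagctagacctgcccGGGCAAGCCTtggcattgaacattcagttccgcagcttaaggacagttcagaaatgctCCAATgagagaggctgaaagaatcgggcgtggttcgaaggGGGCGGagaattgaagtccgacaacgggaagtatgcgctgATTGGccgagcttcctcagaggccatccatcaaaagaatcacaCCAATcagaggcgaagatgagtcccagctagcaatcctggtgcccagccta
Cdk4: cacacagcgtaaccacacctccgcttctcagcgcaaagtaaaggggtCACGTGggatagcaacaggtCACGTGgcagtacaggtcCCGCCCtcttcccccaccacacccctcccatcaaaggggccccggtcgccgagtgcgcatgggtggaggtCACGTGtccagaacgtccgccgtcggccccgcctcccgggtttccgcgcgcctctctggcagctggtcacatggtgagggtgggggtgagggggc

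Each of Cdkn1a, Gadd45a and Ccng1 held 1 p53 half-site, which was found in 6.64% of 33469 promoter windows of the same length. None of the windows of the other 5 genes in the table held one, but the windows are not alike. Those of Ccnd3 and Cdkn2a lay wholly inside the annotated gene. Only 19 of the 250 bases lay outside it for Cdkn1b, and 199 for Cdkn2b. The Cdkn1a half-site began 201 bases before the table's start, the Gadd45a half-site 48 bases and the Ccng1 half-site 232 bases before it. Cdk4 held 3 E-boxes, a motif in 5.59% of windows. The GC box was in 30.5% and the CCAAT box in 34% of windows, and Ccng1 held 3 CCAAT boxes. TATAAA (12.9% of windows), the E2F motifs TTTCCCGC (0.813%) and TTTGGCGC (0.412%), the AP-1 motif TGANTCA (6.34%) and the FoxO motif TGTTTAC (3.21%) had no match in any of the 8 windows. These are letters in a window and not measured binding.

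The other genes of the G1 pathway were mostly lower in neurons. Of 28 listed, 11 had a named probe, and limma called 1 higher and 6 lower, where it called 20.0% of all genes higher and 17.4% lower. Cdk2, the kinase that takes over from Cdk4 later in G1, had log2 differences of −3.02 in the OB and −2.76 in the HPC (limma adjusted p = 4.4e-05). Myc, a growth factor-induced transcription factor, had −3.77 in the OB and −2.53 in the HPC (limma adjusted p = 2.98e-05), and the E2F partner Tfdp1 −1.94 in the OB and −1.80 in the HPC (limma adjusted p = 0.00276). The inhibitor that rose was Cdkn1c, which encodes p57, with levels of 7.32 in OB neurons and 4.52 in HPC neurons, against 1.56 in OB NSC and 1.54 in HPC NSC (limma, 4.37 ± 0.55 log2 units, SE, adjusted p = 4.86e-06). The NSC arrays were 0.02 log2 units apart for this gene, and the neuron arrays 2.80, with the OB higher in both. Its neuron-NSC difference was 2.78 log2 units larger in the OB than in the HPC, past the 4-fold limit used for that quantity. The Ink4 inhibitor Cdkn2d fell, with −1.27 in the OB and −2.07 in the HPC (limma adjusted p = 0.00731). Cdk6, Rb1 and E2f1 had no named probe.

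Of 33 listed p53 genes, 17 had a named probe, and limma called 7 higher and 2 lower in neurons, beside the same shares of all genes. Ephx1, an epoxide hydrolase of detoxification, had differences of 7.41 in the OB and 8.82 in the HPC, and the stress-induced growth factor Gdf15 6.31 in the OB and 4.94 in the HPC. The death receptor Fas had 3.22 in the OB and 3.84 in the HPC, and the membrane protein Cd82 3.55 in the OB and 3.19 in the HPC. Cd82 had the largest limma adjusted p of these 4 genes, 8e-06. The other Gadd45 genes did not follow Gadd45a: Gadd45g was −1.60 in the OB and −1.33 in the HPC (limma adjusted p = 0.0148), and Gadd45b −0.20 in the OB and −1.32 in the HPC (limma adjusted p = 0.214). Mdm2 had no named probe.

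Of 33 listed genes of S phase and mitosis, 16 had a named probe, and limma called 15 lower and 0 higher in neurons, beside the same shares of all genes. The remaining gene, Tyms, a thymidylate synthase named here after its values were seen, was 1.03 in the OB and 0.08 in the HPC (limma adjusted p = 0.372), and did not pass an unadjusted p under 0.05 either. Mcm7, part of the replicative helicase, was −3.94 in the OB and −3.87 in the HPC. Pcna, the sliding clamp of DNA polymerase, was −2.69 in the OB and −2.55 in the HPC, and the mitotic cyclin Ccnb1 −3.14 in the OB and −3.33 in the HPC. The median of these 16 genes was −2.59 in the OB and −2.69 in the HPC. Mki67 had no named probe.

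**Figure D3:**
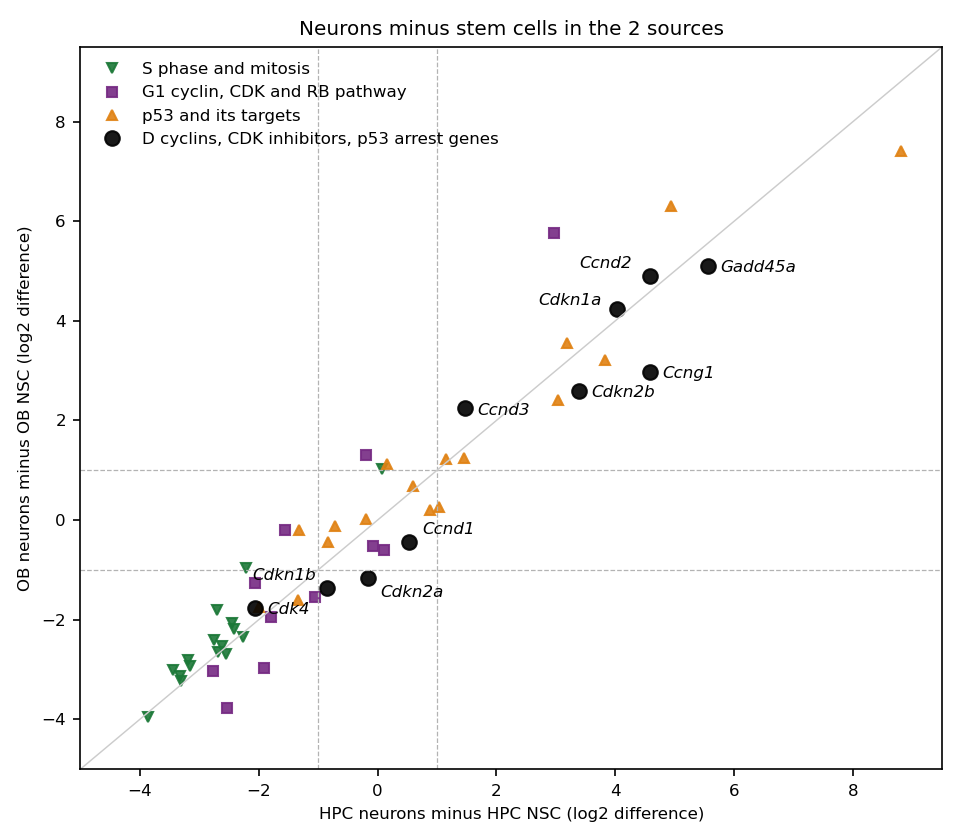
Log2 difference of neurons minus NSC in the OB (y axis) against that in the HPC (x axis), 1 point per gene, for the 10 genes (black circles, named), the other G1 pathway genes (squares), the p53 genes (upward triangles) and the S phase and mitosis genes (downward triangles). Dashed lines mark a 2-fold difference and the grey diagonal equal differences; Ccnd2, Ccnd3, Cdkn1a, Cdkn2b, Gadd45a and Ccng1 lie beyond 2-fold in the upper right and Cdk4 in the lower left with most of the S phase and mitosis genes.

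The sources differed less than the states. Between OB NSC and HPC NSC, 0 of the 10 genes passed the 2-fold limit upwards and 0 downwards, where 4.16% of all measured genes were higher and 6.98% lower. The median difference of the 10 genes was −0.32, beside −0.43 for all measured genes. The values ran from −0.89 for Cdkn1a to 0.65 for Ccng1, and 7 of the 10 changed sign under spike-in scaling. This scaling shifts every gene of the comparison alike, and the median of all measured genes became 0.32. The probes of Cdkn1b gave 0.23 and 1.16, so the size of its difference rests on the choice of probe.

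Between OB neurons and HPC neurons, 0 of the 10 genes passed the 2-fold limit upwards and 3 downwards, where 7.66% of all measured genes were higher and 8.0% lower. The median difference was −0.60 for the 10 genes and −0.01 for all measured genes. Cdkn2a was 2.99-fold lower, Cdkn2b 2.61-fold lower and Ccnd1 2.02-fold lower in OB neurons. Ccng1 was just inside the limit at −0.96, and its second probe gave −1.12. It passed the limit under median scaling (−1.05), under spike-in scaling (−1.35) and as a mean of its probes (−1.04). It did not under normexp background correction (−0.92) or quantile normalization (−0.91). Ccnd1, just past the limit at −1.01, came to −0.90 after quantile normalization and −0.96 as a mean of its probes. The other 6 genes lay between −0.69 for Cdkn1a and 0.25 for Ccnd2. Ccnd2 (−0.15) and Ccnd3 (−0.38) turned negative under spike-in scaling, and for Cdkn1b the probes had opposite signs, −0.29 and 0.40. Over both states limma called none of the 10 genes, 2 of which had an unadjusted p under 0.05 (Cdkn2a, −1.08 ± 0.46 log2 units, SE, adjusted p = 0.505, and Cdkn2b, −0.99 ± 0.45 log2 units, SE, adjusted p = 0.586). It called 0.0281% of all genes higher and 0.211% lower in the OB.

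**Figure D4:**
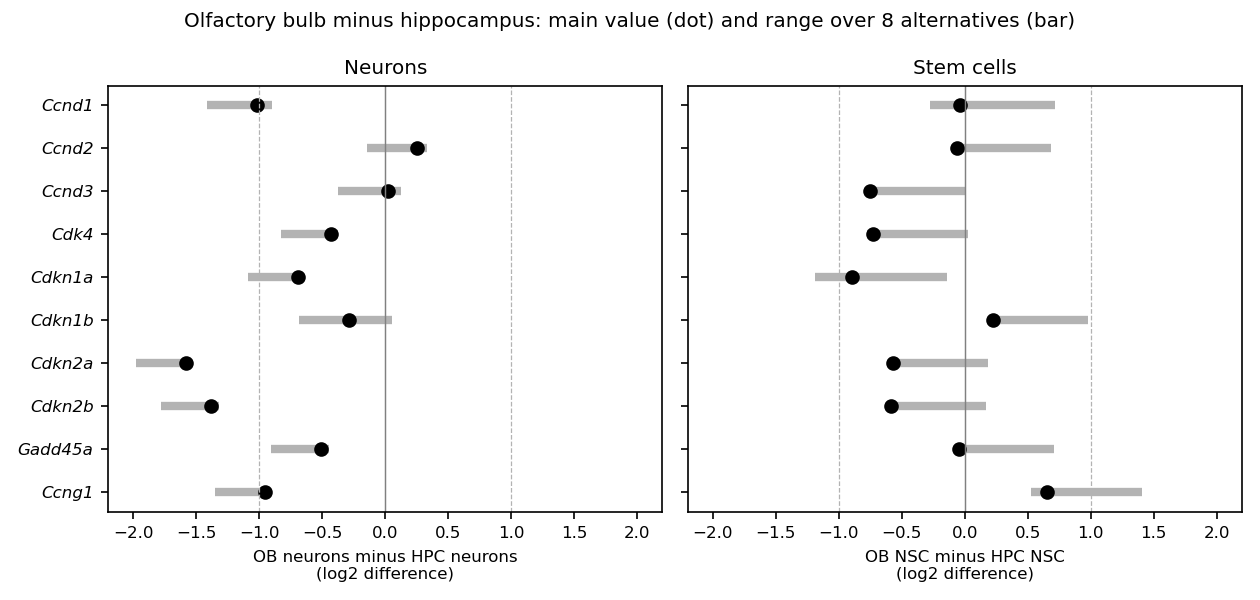
Log2 difference of OB minus HPC for each gene (rows) in neurons (left) and in stem cells (right), with the value reported as a dot and the range over 8 alternative settings, 3 of which could not move these values, as a grey bar; dashed lines mark 2-fold. Cdkn2a and Cdkn2b lie below −1 in neurons under each setting shown, and in stem cells 7 bars reach across 0 under spike-in scaling, which shifts every gene alike.

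The neuron-NSC difference of the OB minus that of the HPC was under 4-fold for each of the 10 genes, where 4.13% of 5495 genes above background on all 4 arrays reached it. Its values were −1.61 for Ccng1, −1.01 for Cdkn2a and −0.98 for Ccnd1, and between −0.80 and 0.77 for the others. Spike-in scaling put these 3 genes past 4-fold, at −2.76 for Ccng1, −2.16 for Cdkn2a and −2.13 for Ccnd1. That scaling shifts the quantity by the same amount for every gene, and the share of all genes then past 4-fold was not counted.

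Genes with the most similar profiles were looked up for the 7 genes whose levels spanned 2 log2 units or more over the arrays, as the smallest Euclidean distance between centred log2 values over the 4 arrays among 5495 genes. Cdk4 was nearest to Chchd4 (0.04), a protein of mitochondrial import, then to Bcs1l and Ndc1. Cdkn1a was nearest to Ggt1 (0.13), then Itgb4 and Kirrel3. Ccnd3 was nearest to Slc29a3 (0.09), Cdkn2b to Panx2 (0.18) and Ccnd2 to Ifi30 (0.20), while Gadd45a (Slco3a1, 0.43) and Ccng1 (Tmem100, 0.43) had no gene as near. With 4 arrays, many genes share such a profile, and the distances are a description.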

How the data were processed

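RNA of 4 pooled samples was measured on 4 Agilent 1-colour (Cy3) arrays. The deposited values are spot intensities, background-subtracted within each array by Agilent Feature Extraction 10.5.1.1, per the file headers; the deposited series table holds the same intensity values. Here they were taken to log2, minus the array's 75th percentile, after leaving out 254 of 41012 probes with outlier spots. The files used here carry accessions and no gene names, so probes were matched by accession to RefSeq names (10783 of 40758; build GRCr8, names only, since the headers name rn4). The probe with the highest mean stood for a gene. Differences were called at 2-fold, and the difference of changes at 4-fold. limma 3.58.1 in R 4.3.3 was fitted to 7112 genes above background on at least 1 array, with dim values set at their bound and Benjamini-Hochberg adjustment; it was tested on simulated data. Named genes were the 10 genes, up to 4 per direction of each list by the smaller of the source differences, 13 genes of interest and the 3 nearest profiles; a gene that this rule takes is not reported here. The genes and lists were chosen with earlier results of these data known. Alternatives were normexp (offset 50, on median spot signals), quantile, median and spike-in scaling, filters, probe means, the authors' table and 1.5-fold.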

Additional observations from a re-analysis of the deposited data

Results flagged for a closer look

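Some genes had differences of opposite sign in the groups of the same contrast, each from single arrays, and the difference between the groups was not tested. Ccnd1 was −0.44 log2 units in OB neurons minus OB NSC and 0.54 in HPC neurons minus HPC NSC. The Ink4 inhibitor Cdkn2c was 1.31 in OB neurons minus OB NSC and −0.19 in HPC neurons minus HPC NSC. For OB minus HPC, Ccng1 was −0.96 in neurons and 0.65 in stem cells, Ccnd3 was 0.021 in neurons and −0.75 in stem cells, Cdkn1b was −0.29 in neurons and 0.23 in stem cells, and Ccnd2 was 0.25 in neurons and −0.066 in stem cells.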

How the results depend on the processing

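No paired analysis was possible by replicate number, because each group has 1 array and the groups share only number 1. The limma fit paired the arrays by source, and without that term it also called 6 genes higher and 1 lower. Ccnd2, Ccnd3, Cdkn1a, Cdkn2b, Gadd45a and Ccng1 were higher in neurons of both sources by at least 1.01 log2 units (Ccnd3, HPC) under each of the 8 value settings tried, 3 of which (both filters and the authors' table) could not move the values of genes above background on all arrays. Those of the 10 genes lower in OB neurons numbered 2 under quantile normalization and 4 under spike-in scaling, against 3. Of all 7022 measured genes, 1434 were lower under quantile normalization and 2771 under spike-in scaling. Of the 10 genes, those lower in HPC neurons numbered 2 under median scaling and at 1.5-fold, against 1. Of all 6657 measured genes, 2855 were lower under median scaling and 2756 at 1.5-fold. In OB NSC minus HPC NSC, 1 of the 10 genes was higher under spike-in scaling and at 1.5-fold, and 1 was lower with probe means and 4 at 1.5-fold, against 0 in each case. Of all 6028 measured genes, 920 were higher under spike-in scaling, and 499 were higher and 2169 lower at 1.5-fold. With probe means, 411 of 6032 were lower. The gene lower with probe means was Cdkn1a (−1.19), whose second probe was not well above background on either NSC array. In OB neurons minus HPC neurons, 5 of the 10 genes were lower under spike-in scaling and at 1.5-fold, against 3. Of all 6999 measured genes, 989 were lower under spike-in scaling and 1012 at 1.5-fold. Spike-in scaling, which shifts every gene alike, put 3 of the 10 genes past 4-fold in the difference of changes, against 0. How many of all genes it put there was not counted. Quantile normalization left 0 of the 10 genes called lower in neurons by limma, against 1, where 639 of all genes were called lower. The cause was not tested.

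Counts over all genes moved by more than 1.5 times. At 2-fold, over 8 settings, those higher and lower in OB neurons ran from 1069 to 2294 (1887) and from 1161 to 2771 (1402), with the reported counts in brackets. In HPC neurons they ran from 787 to 1899 (1454) and from 1031 to 2855 (1788). For OB minus HPC they ran from 257 to 812 (536) and from 302 to 989 (560) in neurons, and from 134 to 920 (251) and from 86 to 727 (421) in stem cells. In limma, over 4 settings, state calls ran from 796 to 1236 (1420) and from 639 to 1182 (1235), and source calls from 0 to 20 (2) and from 0 to 62 (15). The share higher among called genes was 31.3% under spike-in and 37% under median scaling for OB neurons minus OB NSC (57.4%), 64.8% and 28.8% for the HPC (44.8%), 24.3% and 42.9% for OB neurons minus HPC neurons (48.9%) and 91.5% and 34.8% for OB NSC minus HPC NSC (37.4%). The all-gene median under spike-in scaling was −0.62 in the OB, 0.08 in the HPC, −0.41 between neurons and 0.32 between stem cells, and under median scaling −0.41 in the OB and −0.78 in the HPC. Over all settings, 12 values of the 10 genes came to pass the limit set for them and 4 no longer passed it, while 434 kept their call. The limits were 2-fold, 4-fold for the difference of changes, and an adjusted p under 0.05 in limma.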

Other observations

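Further lists bear on the same genes. Of 15 listed senescence-associated genes, 10 were measured, and limma called 8 higher and 1 lower in neurons, where it called 20.0% of all genes higher and 17.4% lower. The chemokine gene Ccl2 had log2 differences of 6.79 in the OB and 5.95 in the HPC (limma adjusted p = 2.74e-09), and Cxcl1, another chemokine gene, was higher by at least 8.44 in the OB and by 9.24 in the HPC. The matrix protease gene Mmp3 was higher by at least 5.22 in the OB and at least 4.97 in the HPC. The nuclear lamina gene Lmnb1 was lower, at −1.57 in the OB and −2.31 in the HPC (limma adjusted p = 0.00234). Il6 and Il1a were not well above background on any array. Several of these genes are also made by fibroblasts and microglia, whose markers were higher on the same arrays for 11 of 11 and 6 of 9 genes, and their part in these values was not tested.

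Of 23 listed regulators upstream of the inhibitors, 16 were measured, and limma called 6 higher and 2 lower in neurons, beside the same shares of all genes, so that the genes called lower were no more frequent than among all genes. The transcription factors Egr1 (1.999 in the OB, 3.335 in the HPC) and Klf4 (3.63 in the OB, 1.36 in the HPC) were among those higher. Id2, an inhibitor of differentiation factors, was lower, at −2.26 in the OB and −1.002 in the HPC (limma adjusted p = 0.0106).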
